A study of Mus musculus with 16 samples.

Results

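The miR-322 and miR-503 cluster is a group of miRNA hairpins that lie close together on the mouse X chromosome. Its members were taken by name, as the mature miRNAs of the Mir322, Mir503, Mir351, Mir542 and Mir450 hairpins that the array carries: mmu-miR-322, mmu-miR-322*, mmu-miR-503, mmu-miR-351, mmu-miR-542-3p, mmu-miR-542-5p, mmu-miR-450a-5p, mmu-miR-450b-3p and mmu-miR-450b-5p, written here without the mouse prefix. The asterisk marks the less abundant strand of a hairpin. These are 9 of the 611 mouse miRNAs whose probes were read. A miRNA was tested if some group had it above background on each of its arrays, which 235 mouse miRNAs and 8 of the 9 members did, and miR-450b-5p did not.

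RNA came from primary mouse embryonic fibroblasts (MEFs), cells grown out of embryos that stop dividing after a limited number of passages in culture. Wild-type (WT) MEFs and MEFs lacking Ercc1, a subunit of the nuclease XPF-ERCC1 that cuts damaged DNA out for repair, shared a mixed FVB/n and C57Bl/6 background. Both genotypes were kept in 3% or 20% O2 and harvested at passage 3 (P3) or passage 7 (P7), which gave 8 groups: WT P3 3%, WT P3 20%, Ercc1-/- P3 3%, Ercc1-/- P3 20%, and the same 4 at P7. Each group had 2 replicates, 16 one-colour Agilent arrays in all, and the methods name independent cell lines as the replicates without saying which array holds which line. The arrays held no mRNA probes, so the loss of Ercc1 could not be checked on them.

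The cluster is transcribed as a unit with a long non-coding host RNA, and each hairpin is cut into a 5′ and a 3′ strand. A miRNA binds mRNAs mainly through its seed, bases 2 to 8 from its 5′ end, and lowers their stability and translation. MiR-322 and miR-503 carry seeds of the miR-15/16 family, which acts on cell-cycle genes such as Cdc25a and cyclin D1. The pair is known for rising as myoblasts leave the cell cycle. MiR-351 carries the seed of the miR-125 family.

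The mature sequences below, from RefSeq on GRCm38.p6, show which members share a seed. The seed is in capitals. The first 4 lines set the 2 leading members against 2 miRNAs of other loci:

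miR-322: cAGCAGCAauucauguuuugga

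miR-503: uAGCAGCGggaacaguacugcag

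miR-15b: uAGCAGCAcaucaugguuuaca

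miR-16: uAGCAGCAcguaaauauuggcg

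The next pair shows the seed that miR-351 shares with miR-125b-5p:

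miR-351: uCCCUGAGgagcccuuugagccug

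miR-125b-5p: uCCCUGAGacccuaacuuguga

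The remaining tested members share no seed with each other or with the members above, and the 2 strands of 1 hairpin differ in theirs:

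miR-322*: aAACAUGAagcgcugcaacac

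miR-542-3p: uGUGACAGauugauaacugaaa

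miR-542-5p: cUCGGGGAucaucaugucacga

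miR-450a-5p: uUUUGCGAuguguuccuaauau

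miR-450b-3p: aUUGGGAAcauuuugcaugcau

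All 9 members were found in the RefSeq table, which lists miR-322, miR-322*, miR-503 and miR-351 as miR-322-5p, miR-322-3p, miR-503-5p and miR-351-5p. The seed of miR-322 was identical in 9 other mature miRNAs of that table, among them miR-15a-5p, miR-15b-5p, miR-16-5p, miR-195a-5p and miR-497a-5p. The seed of miR-503 differed from that of miR-322 by A8G, counted from the 5′ end, and no other miRNA of the table had it. MiR-351 shared its seed with 4 others, miR-542-5p with 1 and miR-450b-3p with 2, while miR-322*, miR-542-3p, miR-450a-5p and miR-450b-5p shared theirs with none. MiR-450a-5p is made from both the Mir450-2 and the Mir450-1 hairpin, so its probes read the sum.

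The hairpins lie on the minus strand of chrX:53047997-53054349, which spans 6353 bases. Mir322 comes first in the direction of transcription, at chrX:53054255-53054349. Mir503 begins 295 bases downstream of the start of Mir322. The mature forms of Mir351 begin 1011 bases downstream, and Mir542, Mir450-2, Mir450-1 and Mir450b begin 4862, 5982, 6105 and 6271 bases downstream.

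**Figure D1:**
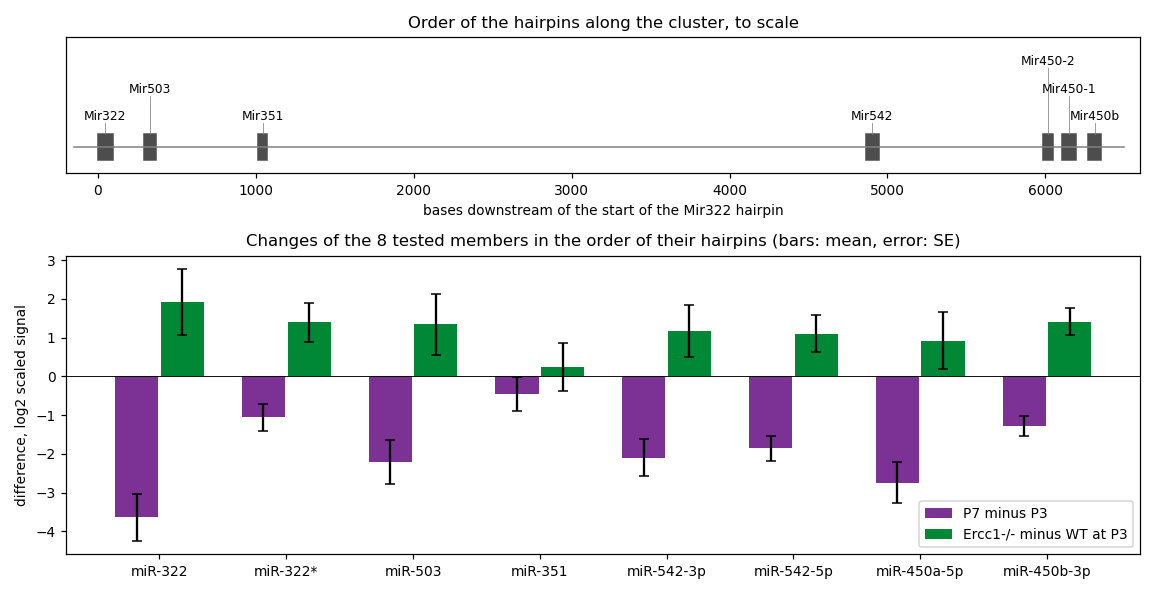
Top, the 7 hairpins drawn to scale by bases downstream of the start of Mir322 (for Mir351 the stretch of its mature forms is drawn). Bottom, the mean difference in log2 scaled signal of the 8 tested members, with its SE, for P7 minus P3 over all groups and for Ercc1-/- minus WT at P3. All 8 members had lower means at P7, as did 60% of all tested miRNAs, and 7 passed the test (limma, adjusted p under 0.05), against 32.3% of all. All 8 had higher means in P3 Ercc1-/- MEFs, as did 48.5% of all, and 0 passed, against 0% of all as higher. MiR-322 was farthest from 0 on both counts and miR-351 nearest.

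Values are log2 signals scaled between arrays, with a floor of 1.50 under which signals were not told apart. They compare samples for 1 miRNA and do not rank miRNAs, whose probes differ in brightness. The 16 arrays differed in depth: 132 to 257 mouse miRNAs stood above background at P3 and 117 to 245 at P7. The fewest were on replicate 2 of Ercc1-/- P7 20% (117), WT P7 20% (128) and WT P3 20% (132). Slide 1 held all first replicates and slide 2 all second replicates, so each slide had 1 array of each group. Of 11 mesenchymal marker miRNAs 7 to 11 stood above background on each array, with a summed signal of 11979 to 23230, while 10 of 10 epithelial, liver and endothelial markers stood above it on none. Blood markers summed to at most 92.1 and neural markers to at most 94.99, the latter in P7 Ercc1-/- MEFs (62.7 to 94.99, against 0 to 10.68 in P7 WT MEFs), and their part in the results was not tested. In bulk RNA, fewer cells carrying a miRNA cannot be told apart from less of it per cell.

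**Figure D2:**
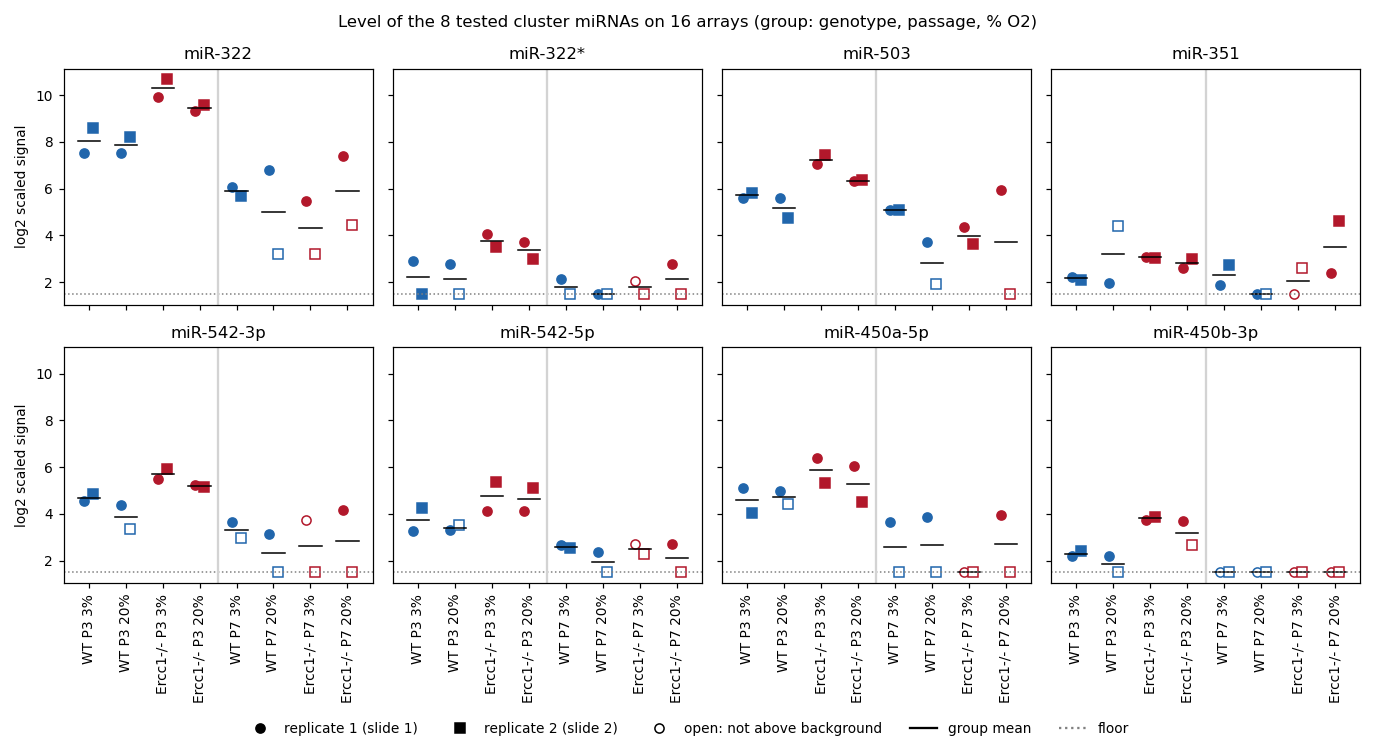
Log2 scaled signal of the 8 tested members on each array, by group of genotype, passage and percent O2 (circle, replicate 1; square, replicate 2; open, not above background; black line, group mean; dotted line, floor). At P3 the Ercc1-/- arrays lie above the WT arrays for miR-322, miR-503, miR-322*, miR-542-3p and miR-450b-3p, and at P7 most open symbols are on slide 2.

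MiR-322, which restrains cell-cycle phosphatases and cyclins, was the member with the widest range. At P3 it read 7.51 and 8.59 in WT 3%, 7.53 and 8.21 in WT 20%, 9.92 and 10.68 in Ercc1-/- 3%, and 9.34 and 9.57 in Ercc1-/- 20%. At P7 it read 6.07 and 5.70 in WT 3%, 6.79 and 3.21 in WT 20%, 5.47 and 3.19 in Ercc1-/- 3%, and 7.38 and 4.46 in Ercc1-/- 20%. Every P3 array was above every P7 array, and at P3 every Ercc1-/- array was above every WT array. The 3 P7 arrays on slide 2 with the lowest values were not above background. In order of group means, Ercc1-/- P3 3% came first at 10.30 ± 0.54 (SD, n = 2), then Ercc1-/- P3 20% at 9.45 ± 0.16, WT P3 3% at 8.05 ± 0.76 and WT P3 20% at 7.87 ± 0.48. The P7 groups followed, with Ercc1-/- 20% at 5.92 ± 2.07, WT 3% at 5.88 ± 0.26, WT 20% at 4.9996 ± 2.54 and Ercc1-/- 3% last at 4.33 ± 1.61. The first 2 steps in this order, from Ercc1-/- 3% to Ercc1-/- 20% and on to WT 3%, exceeded the larger SD of the pair. None of the other 5 steps did.

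MiR-503, the second hairpin of the cluster, was ordered in the same way at P3. It read 5.62 and 5.80 in WT 3%, 5.60 and 4.74 in WT 20%, 7.06 and 7.43 in Ercc1-/- 3%, and 6.32 and 6.36 in Ercc1-/- 20%. At P7 it read 5.10 and 5.09 in WT 3%, 3.71 and 1.94 in WT 20%, 4.34 and 3.64 in Ercc1-/- 3%, and 5.95 and 1.50 in Ercc1-/- 20%. The P3 Ercc1-/- arrays were again all above the P3 WT arrays. The P3 and P7 ranges overlapped: replicate 1 of Ercc1-/- P7 20% (5.95) was above all 4 WT arrays at P3, and both WT P7 3% arrays were above replicate 2 of WT P3 20% (4.74). Replicate 2 of Ercc1-/- P7 20% and of WT P7 20% was not above background.

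The Mir450 and Mir542 members, at the far end of the cluster, fell to the floor on many P7 arrays. MiR-450a-5p read 4.03 to 5.13 on the 4 WT arrays at P3 (median 4.71) and 4.50 to 6.39 on the 4 Ercc1-/- arrays (median 5.68). At P7 it was above background on 3 arrays, replicate 1 of WT 3% (3.64), WT 20% (3.86) and Ercc1-/- 20% (3.93), and at the floor on the other 5. Each P7 array was below each P3 array, while the genotypes overlapped at P3. MiR-542-3p, known to act on the survival factor survivin, read 3.35 to 4.85 (median 4.45) in WT and 5.16 to 5.91 (median 5.37) in Ercc1-/- MEFs at P3, without overlap. At P7 it lay between the floor and 3.64 in WT and between the floor and 4.16 in Ercc1-/- MEFs, with 3 of 8 arrays above background.

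MiR-542-5p, from the other strand of the Mir542 hairpin, read 3.26 to 4.24 in WT and 4.13 to 5.38 in Ercc1-/- MEFs at P3. At P7 it reached at most 2.66 in WT and 2.72 in Ercc1-/- MEFs, below every P3 array. MiR-450b-3p read 1.50 to 2.40 (median 2.20) in WT and 2.65 to 3.87 (median 3.72) in Ercc1-/- MEFs at P3. It was above background on 6 of 8 P3 arrays and on 0 of 8 P7 arrays, where it was at the floor throughout. MiR-450b-5p stood above background on 1 array, replicate 1 of Ercc1-/- P3 3%, at 1.65.

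MiR-322*, the other strand of the Mir322 hairpin, read 1.50 to 2.92 in WT and 3.01 to 4.04 in Ercc1-/- MEFs at P3, without overlap. Replicate 2 of both WT groups was at the floor. Of its 4 probes 2 were above background on any array, 1 of them on 10 arrays and the other on 2. At P7 miR-322* was above background on 3 of 8 arrays and reached 2.79. MiR-351 had no such order. It read 1.97 to 2.23 on 3 WT arrays at P3 and 2.61 to 3.07 on the 4 Ercc1-/- arrays, but its highest values were on replicate 2 of WT P3 20% (4.41, not above background) and of Ercc1-/- P7 20% (4.63), 2 of the 3 arrays with the fewest miRNAs above background. A single probe of its 4 was above background on any array, against both of 2 probes for miR-322, miR-503, miR-542-3p and miR-450a-5p. MiR-503* and miR-450a-3p, also on the array, were above background on none.

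The first comparison asked how miRNA levels changed from early to late passage. Averaged over genotype and oxygen, all 8 tested members had lower mean signals at P7, with a median change of -1.98, and 7 passed the test as lower. Among these 7, miR-322*, miR-542-3p, miR-450a-5p and miR-450b-3p entered the test only through P3 groups. That rule itself favoured a fall for them, so their direction and calls are given as description. Of all tested miRNAs 60% had lower mean signals. Across the array 76 of the 235 tested miRNAs, 32.3%, passed as lower (limma, Benjamini-Hochberg adjusted p under 0.05), and the median change of all 235 was -0.39. MiR-322 changed by -3.64 (SE 0.60, limma adjusted p = 0.00314), an estimated fall of 12.4-fold and the lowest value of the 235. Of its 8 P7 arrays 3, all on slide 2, were not above background. Their unscaled signals of 3.79 (WT 20%), 3.70 (Ercc1-/- 3%) and 3.73 (Ercc1-/- 20%) became 9.23, 9.15 and 22.0 after scaling. The fold is therefore not a measured one. On slide 1, where miR-322 was above background on all P7 arrays, the change was smaller, at -2.15. P7 arrays on which a member was not above background give only a bound. The folds given as "at least" allow for such arrays under this scaling and floor, and are not limits across slides or other processing. MiR-450a-5p was at least 3.78-fold lower (change -2.74, SE 0.52, limma adjusted p = 0.00568). MiR-503 fell by 2.21 on the log2 scale (SE 0.56, limma adjusted p = 0.00982), at least 3.39-fold.

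The Mir542 strands fell by similar amounts. MiR-542-3p was at least 2.66-fold lower (-2.10, SE 0.48, limma adjusted p = 0.00701) and miR-542-5p at least 2.41-fold lower (-1.86, SE 0.33, limma adjusted p = 0.00379). For miR-450b-3p the fall was at least 1.38-fold (-1.28, SE 0.26, limma adjusted p = 0.00639), and for miR-322* at least 1.20-fold (-1.06, SE 0.35, limma adjusted p = 0.0238). The call of miR-322* was lost without replicate 1 of any P3 group, or without replicate 2 of WT P7 3% or Ercc1-/- P7 3% (limma adjusted p of 0.0563 to 0.0630). MiR-351 changed by -0.46 (SE 0.44, limma adjusted p = 0.367).

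**Figure D3:**
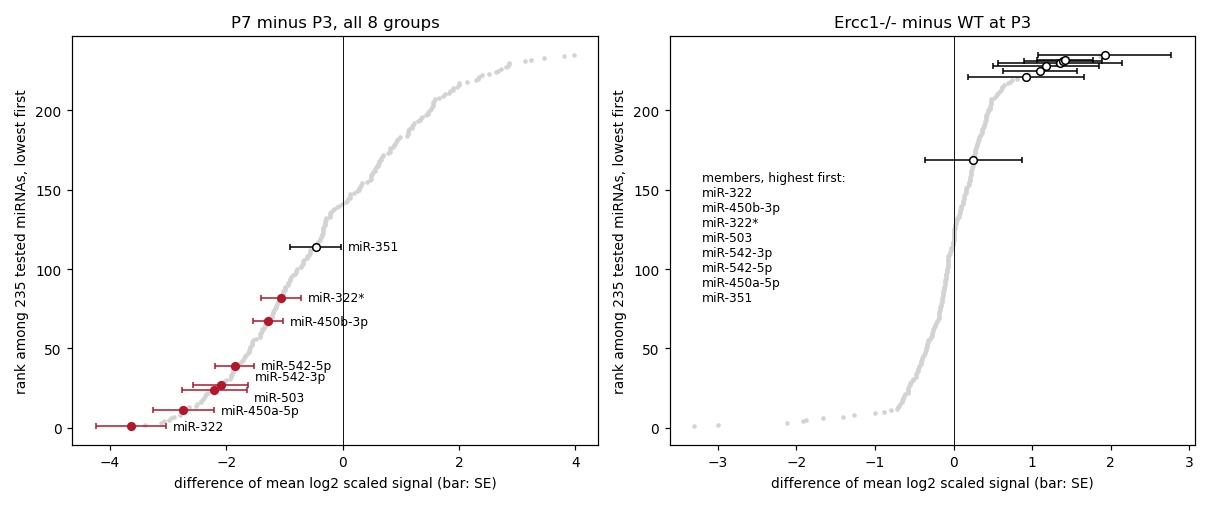
Each of the 235 tested miRNAs (grey) by its difference in mean log2 scaled signal and its rank, for P7 minus P3 (left) and Ercc1-/- minus WT at P3 (right). Cluster members have bars of 1 SE, filled red where the adjusted p was under 0.05. On the left they spread from rank 1 to rank 114 from the lowest, and on the right 7 of 8 sit within the 15 highest with none passing the test.

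The fall was seen on both slides and was larger on slide 2 for 5 of the 7. MiR-322 changed by -2.15 on slide 1 and -5.12 on slide 2, and miR-503 by -1.38 and -3.04. MiR-450a-5p changed by -2.41 and -3.07. For 5 members (miR-322, miR-503, miR-542-3p, miR-542-5p and miR-450a-5p) P7 was below P3 on both slides in all 4 cultures, as for 42 of the 235 (17.9%). For miR-322, miR-542-5p and miR-450a-5p the 8 P7 arrays lay wholly below the 8 P3 arrays, as for 13 of the 235 (5.53%). Array brightness differed with slide and with passage, and its part in the result was not tested. The mean unscaled log2 signal of the 57 miRNAs above background everywhere was 9.17 on slide 1 and 7.55 on slide 2. On slide 1 the arrays ran from 9.31 to 9.77 at P3 and from 7.91 to 9.29 at P7. On slide 2 they ran from 6.98 to 8.65 at P3 and from 5.80 to 7.99 at P7. Without the 3 arrays with the fewest miRNAs above background, which leaves groups of 1 array, miR-322 changed by -2.74. With the normexp background correction in place of the scanner software's, the median of all tested miRNAs shifted to 0.34, and 21 of the 235 passed as lower. The 1 member that still passed was miR-322 (-1.96), and 5 members had changes above 0.

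Split by genotype, the fall passed the test in Ercc1-/- MEFs. All 8 members had lower mean signals there, as did 58.7% of all tested miRNAs, and 7 were called lower, against 64 of 235 miRNAs (27.2%). Of these 7, miR-322*, miR-542-3p, miR-450a-5p and miR-450b-3p entered the test only through P3 groups, which favoured a fall. MiR-322 changed by -4.75 (SE 0.85, limma adjusted p = 0.0059), miR-450a-5p by -3.46 (SE 0.74, limma adjusted p = 0.0111) and miR-503 by -2.93 (SE 0.79, limma adjusted p = 0.0176). The 4 P3 arrays were above the 4 P7 arrays without overlap for those 7 members, as for 59 of the 235 (25.1%). In WT MEFs the members also had lower mean signals, with a median of -1.40 (59.1% of all tested miRNAs were lower), but 0 of 8 passed by limma, where 5 of 235 miRNAs (2.13%) passed as lower. MiR-322 changed by -2.52 there (SE 0.85, limma adjusted p = 0.22). At an unadjusted p under 0.05, 3 members and 19.1% of the 235 miRNAs passed in WT MEFs, and with the replicate number as a block miR-450a-5p did so after adjustment (limma adjusted p = 0.0331), against 4.26% of all. In WT MEFs the P7 arrays did not overlap the P3 arrays for 3 members, miR-322, miR-542-5p and miR-450a-5p, against 10.2% of all.

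The test of the difference between these passage changes called 0 of 8 members and 0 of 235 miRNAs (0%). Members' changes in Ercc1-/- minus those in WT MEFs had a median of -1.34. MiR-322 differed by -2.24 (SE 1.20, limma adjusted p = 0.769), with -2.12 on slide 1 and -2.35 on slide 2. MiR-450b-3p was the 1 member with an unadjusted p under 0.05 (-1.42, SE 0.51), as 4.68% of all tested miRNAs were. Without replicate 1 of Ercc1-/- P7 20%, the highest P7 array for miR-503, that miRNA was called (-2.56, limma adjusted p = 0.0371). Within 3% O2 alone the same test called 0 members and 0% of all miRNAs, with 1 member, miR-322, at an unadjusted p under 0.05 against 2.13% of all.

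Within single cultures 0 member calls were made over the 4 passage comparisons by limma, which called 0% of all tested miRNAs in both genotypes in 3% O2 and 1.28% in both in 20% O2. The widest changes were in Ercc1-/- MEFs in 3% O2, where 7 of 8 members had an unadjusted p under 0.05, against 31.5% of the 235 miRNAs. In 20% O2 6 members reached it in Ercc1-/- MEFs (36.6% of all) and 2 in WT MEFs (6.81%), and in WT MEFs in 3% O2 0 did (5.53%). In Ercc1-/- MEFs in 3% O2 miR-322 changed by -5.97 (SE 1.20, limma adjusted p = 0.0506), and both slides had it lower (-4.46 and -7.49). With the replicate number as a block 7 members passed in that Ercc1-/- culture, against 18.3% of all tested miRNAs (0% without the block), with limma adjusted p of 0.00740 for miR-450a-5p and 0.0212 for miR-322. The methods' t-test, at an unadjusted p under 0.05 and at least 2-fold, picked miR-322*, miR-503 and miR-450b-3p in this culture, 3 of 8 members against 8.94% of all, and none of the 235 after adjustment. In WT MEFs in 3% O2 the members' changes ran from -2.17 to 0.15. Member calls over the 4 cultures depended on single arrays, and were most when replicate 1 of Ercc1-/- P7 20% was left out. Such a fit leaves 1 array in a group. Its calls over all miRNAs in single cultures were not counted, so the change is not read as a result about the members.

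The second comparison asked how Ercc1-/- MEFs differed from WT MEFs at early passage. All 8 tested members had higher mean signals in Ercc1-/- MEFs, with a median of 1.26, while 48.5% of the 235 tested miRNAs were higher and their median was 0. MiR-322 was 3.78-fold higher (1.92, SE 0.85), the highest difference of the 235, and 7 of the 8 members were among the 15 highest. That number was 2 with normexp and with the scanner software's summed signal, and 5 with a floor 4 times as high. MiR-322 kept the highest place in 23 of 30 other settings and leave-outs, and its lowest place was 13th, with the summed signal. Neural marker miRNAs also summed higher in these cells, at 15.97 to 53.8 on the P3 Ercc1-/- arrays against 0 to 25.9 on the P3 WT arrays, with a median difference of 0.85 over the 2 tested of 7, and their part in the difference was not tested. Of those 7, miR-9, miR-124 and miR-138 were above background on no array.

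None of the members passed the test of this difference by limma, where 3 of 235 miRNAs (1.28%) passed as lower and 0 (0%) as higher. Smallest was the limma adjusted p of miR-450b-3p, 0.123 (1.42, SE 0.36). With the replicate number as a block 0 members passed, against 1.28% of all, and the smallest limma adjusted p was 0.0726, for miR-450b-3p and miR-322*. The difference was 1.39 for miR-322* (SE 0.49, limma adjusted p = 0.369), 1.35 for miR-503 (SE 0.79, limma adjusted p = 1), 1.18 for miR-542-3p (SE 0.67), 1.102 for miR-542-5p (SE 0.47), 0.92 for miR-450a-5p (SE 0.74) and 0.25 for miR-351 (SE 0.62). At an unadjusted p under 0.05, 4 of 8 members passed (miR-322, miR-322*, miR-542-5p and miR-450b-3p), against 5.53% of the 235. The 4 Ercc1-/- arrays did not overlap the 4 WT arrays for 5 members, against 15 of 235 miRNAs (6.38%). The 4 arrays of a genotype may come from the same lines in both oxygen levels, so they are not known to be 4 independent samples. MiR-450b-3p was called without either replicate of Ercc1-/- P7 20% (limma adjusted p = 0.0296), which enter the test through the shared spread.

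**Figure D4:**
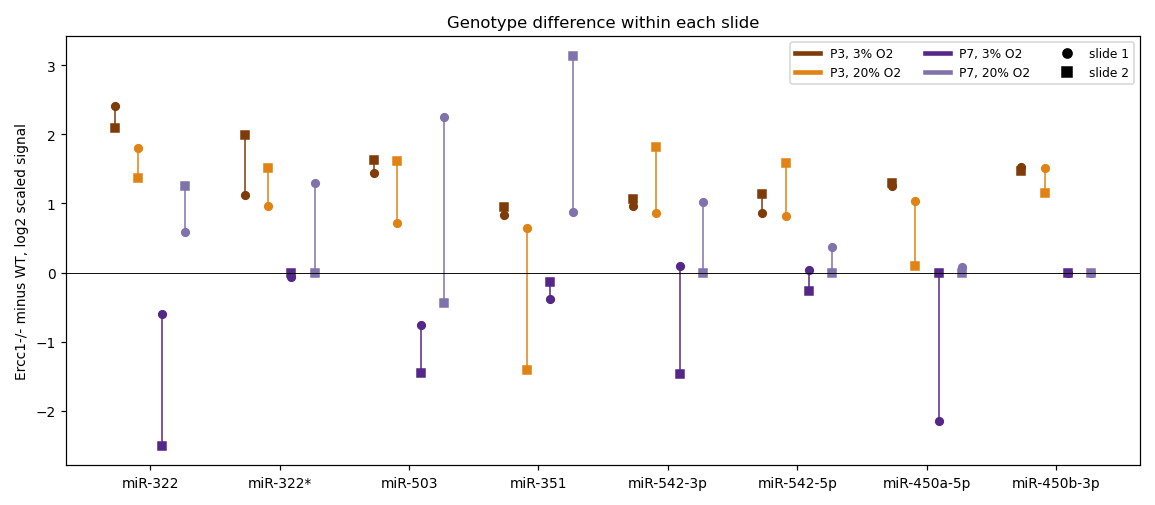
Ercc1-/- minus WT in log2 scaled signal within slide 1 (circles) and slide 2 (squares), for each tested member, passage and oxygen level. At P3 the points of 7 members lie above 0 in both oxygen levels, and at P7 they lie on both sides of 0 or at it, where both genotypes were at the floor.

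The difference at P3 held within each slide and each oxygen level for 7 members, all but miR-351, as for 55 of the 235 (23.4%). For miR-322 it was 2.41 and 2.09 on the slides in 3% O2, and 1.81 and 1.36 in 20% O2. For miR-503 it was 1.44 and 1.63 in 3% O2, and 0.72 and 1.61 in 20% O2. For miR-450b-3p it was 1.53 and 1.47 in 3% O2, and 1.51 and 1.16 in 20% O2. The methods' t-test picked miR-503 and miR-450b-3p in 3% O2, against 2.98% of the 235, and 0 members in 20% O2, against 2.13%. Both probes of miR-322 gave this difference, 1.92 each, and both probes of miR-503 did, at 1.75 and 1.28. Before scaling, the mean log2 signal of the P3 arrays on slide 1 was 9.68 and 9.77 in Ercc1-/- and 9.31 and 9.34 in WT MEFs. On slide 2 it was 8.35 and 8.51 in Ercc1-/- and 8.65 and 6.98 in WT MEFs. The part of this brightness in the difference was not tested.

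At P7 most member means differed between genotypes in opposite directions in 3% and 20% O2, and this contrast was not tested. Many of the values were not above background. In 3% O2 miR-322*, miR-351, miR-542-3p, miR-542-5p and miR-450a-5p were above background on 0 Ercc1-/- arrays. In 20% O2 the slide 2 difference of miR-322*, miR-542-3p, miR-542-5p and miR-450a-5p was 0, with both arrays at the floor. In 3% O2 7 of 8 members had lower mean signals in Ercc1-/- MEFs (median -0.47), as did 51.1% of the 235, and in 20% O2 7 had higher ones (median 0.58), as did 53.2%, with miR-450b-3p at 0 in both. By limma 0 members passed in either, against 0% of all in 3% O2 and 0.426% in 20% O2. Averaged over the oxygen levels 4 had lower and 3 had higher mean signals in Ercc1-/- MEFs, with a median of -0.04, and 0 passed by limma (1 of 235, 0.426%, in each direction) or at an unadjusted p under 0.05 (6.81% of all). The Ercc1-/- arrays lay above the WT arrays without overlap for 0 members, against 1.28% of all. MiR-322 differed by -0.32 (SE 0.85). In 3% O2 it was lower in Ercc1-/- MEFs on both slides (-0.60 and -2.50), with the Ercc1-/- array on slide 2 not above background. In 20% O2 it was higher on slide 1 (0.59) and, after scaling, on slide 2 (1.25), where neither array was above background. The unscaled signals on slide 2 were 3.79 in WT and 3.73 in Ercc1-/- MEFs, so the 1.25 came from the scaling of the arrays. MiR-503 was also lower in 3% O2 (-0.76 and -1.45), and in 20% O2 the slides disagreed (2.24 and -0.44). MiR-450b-3p was at the floor in both genotypes, so no fold can be given.

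Oxygen was the third factor. From 3% to 20% O2, averaged over genotype and passage, 6 members had lower and 2 had higher mean signals, with a median of -0.19, and 0 passed by limma or at an unadjusted p under 0.05 (2 of 235 miRNAs, 0.851%, passed by limma and 2.55% without adjustment). MiR-503 had the widest difference, -0.997 (SE 0.56), and slide 2 (-1.86) carried more of it than slide 1 (-0.13). Without replicate 1 of Ercc1-/- P7 20% it was called (-1.55, limma adjusted p = 0.0353). MiR-322 differed by -0.08 (SE 0.60), with 0.52 and -0.68 on the slides. At P3 in Ercc1-/- MEFs all 8 members had lower mean signals in 20% O2, from -0.14 to -0.91, with 0 passing by limma (0% of all) or at an unadjusted p under 0.05 (0.426% of all). The passage change did not pass as different between oxygen levels for any of the 8 members (median difference 0.28) or of the 235 miRNAs (0%), with 0 members at an unadjusted p under 0.05 (0.851% of all).

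MiRNAs of other loci with the miR-322 seed were compared on the same arrays. These 5 (miR-15a, miR-15b, miR-16, miR-195 and miR-497) were all tested. All had lower mean signals at P7, with a median of -1.89, and 4 were called, at -1.86 for miR-15a, -2.79 for miR-15b, -2.52 for miR-195 and -1.42 for miR-497 (limma adjusted p = 0.00701 for each of the last 2), while miR-16 changed by -1.89 (limma adjusted p = 0.0529). At P3 all 5 had higher mean signals in Ercc1-/- MEFs, by 0.16 to 0.95 with 0 called, a range below the 1.92 of miR-322 and the 1.35 of miR-503. At P7 all 5 had lower mean signals in Ercc1-/- MEFs, and miR-497 was called there (-2.36, limma adjusted p = 0.0247). The differences between miRNAs were not tested.

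**Figure D5:**
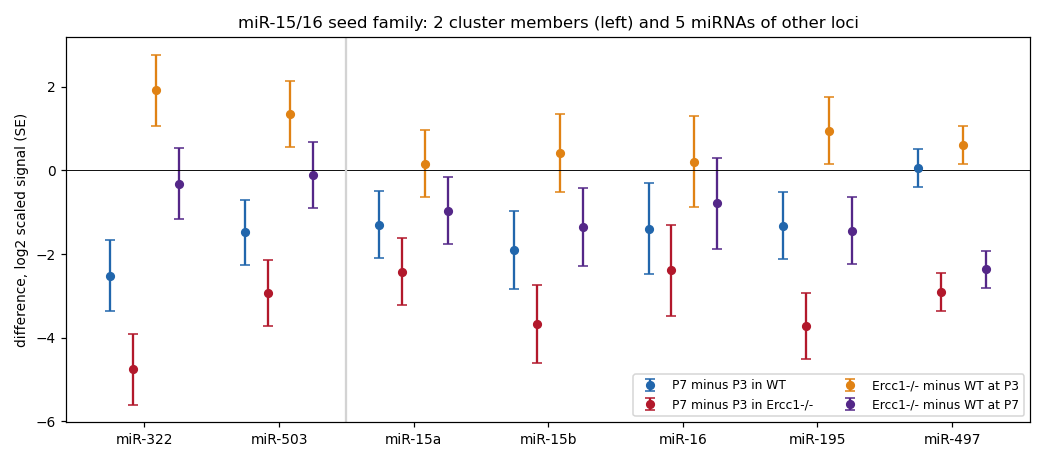
Differences in mean log2 scaled signal, with SE, for miR-322 and miR-503 (left of the line) and the 5 miRNAs of other loci with the miR-322 seed. From P3 to P7 all 7 had lower means in Ercc1-/- MEFs, and miR-322 had the widest change there (-4.75) and the highest difference at P3 (1.92).

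The 2 miRNAs that share the miR-351 seed fell with passage, miR-125b-5p by -1.22 (SE 0.37, limma adjusted p = 0.0174) and miR-125a-5p by -0.71 (SE 0.27, limma adjusted p = 0.0417). Neither was higher in P3 Ercc1-/- MEFs (-0.11 and -0.33). Of 27 other X-linked miRNAs on the array 14 were tested. With passage 4 of the 14 were called lower and 2 higher, with a median of -0.38, next to -1.98 for the cluster. MiR-98 (-2.50) and miR-652 (-1.56) fell, and miR-222 (1.82) and miR-188-5p (3.81) rose. At P3 their Ercc1-/- minus WT median was -0.08, with 6 above and 8 below 0 and 0 called.

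The miRNAs most like miR-322 over the 8 groups were found from the root mean square of the differences between group means, each miRNA centred on its own mean. Outside the cluster the 5 nearest of the tested miRNAs were miR-31* (0.81), miR-204 (0.85), miR-26b (0.86), miR-299* (0.88) and let-7f (0.91). Of the members, miR-450a-5p was nearest (0.64) and ahead of all of these, followed by miR-542-3p (0.91) and miR-503 (0.95). MiR-542-5p stood at 1.08, miR-450b-3p at 1.28, miR-322* at 1.37 and miR-351 at 1.78, behind 97 miRNAs from outside the cluster. Dim members reach the floor at P7 and so have a smaller range to match.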

How the data were processed

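Each of the 16 samples was 1 array of total RNA, Cy3-labelled (Agilent mouse miRNA V2). The deposited scanner files give linear intensity per spot, already background-subtracted by Feature Extraction (the authors' software, version 10.7.1.1 per the file headers). A deposited series table holds unscaled signal per miRNA on a linear scale, with column medians of -0.08 to 3.02, values below 0 and unstated centring, and served as an alternative. Outlier spots were left out, spots averaged per probe and probes per miRNA. A miRNA was above background where 50% or more of a probe's spots were well above it. Signals were scaled to equal mean log2 intensity of the 57 miRNAs that were above background throughout, floored at 2.82 (the median over arrays of the lowest signal above background, 1.02 to 18.0) and put on the log2 scale. No spot was saturated. The number of arrays limits the precision.

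Limma 3.58.1 (R 4.3.3) was fitted to 8 group means over all 16 arrays (8 residual and 3.58 prior degrees of freedom), with Benjamini-Hochberg adjustment over 235 miRNAs in each comparison. The fit was run on simulated data with independent noise on each array. These held no slide, depth or floor effects, so that run says nothing about such effects. A fold is "at least" where arrays on the dim side were not above background: each then took the higher of its own value and the lowest signal above background on that array. For miR-322 the arrays' own values were the higher, which left the passage change as estimated. Its fold rests in part on arrays where it was not above background, so it is given as an estimate and is not a measured fold. The members, lists and rules were chosen with earlier results of these data known: all members are named, with seed partners, the 4 other X-linked miRNAs of widest change and the 5 nearest patterns. The normexp alternative used median foreground signals, since the files used here hold no mean signal. Replicate numbers coincide with slide and scan. Slide differences of the groups correlated at a median r of 0.61 among P3 groups (lowest 0.48), 0.81 among P7 groups (lowest 0.71) and 0.03 between passages (lowest -0.34). Since not every pair was correlated, the fit with the replicate number as a block is an alternative. Whether a number is also a cell line is not stated, and p-values measure the spread between these samples.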

Additional observations from a re-analysis of the deposited data

Results flagged for a closer look

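The differences here, 6 in all, were picked out because both slides moved 1 way in 1 setting and the opposite way in another. In 3% O2 miR-322 was higher in Ercc1-/- MEFs at P3 (2.41 and 2.09 on the slides) and lower at P7 (-0.60 and -2.50), a difference of -3.80 between the passages (SE 1.70). MiR-503 did the same (1.44 and 1.63 at P3, -0.76 and -1.45 at P7, a difference of -2.64), as did miR-351 (0.84 and 0.94 at P3, -0.38 and -0.14 at P7, a difference of -1.15). The interaction within 3% O2, a test added after seeing the data, passed for none of them by limma (adjusted p = 0.975 for each) and only for miR-322 before adjustment. MiR-322 was above background on 3 of the 4 P7 arrays in question and miR-503 on 4, while miR-351 was on 2.

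In Ercc1-/- MEFs miR-322 was lower in 20% O2 than in 3% O2 at P3 (-0.58 and -1.11) and higher at P7 (1.91 and 1.26), a difference of 2.44, and miR-351 did likewise (-0.46 and -0.04 at P3, 0.88 and 2.03 at P7, a difference of 1.70). At P7 miR-351 was lower in 20% O2 in WT MEFs (-0.38 and -1.25) and higher in Ercc1-/- MEFs (0.88 and 2.03), a difference of 2.27. These 3 differences were not tested. MiR-322 was above background on 2 of the P7 Ercc1-/- arrays and on neither of those on slide 2. Its unscaled signals on slide 2 were 3.70 in 3% O2 and 3.73 in 20% O2, so the 1.26 came from the scaling of the arrays. MiR-351 was above background on 2 of the P7 Ercc1-/- arrays, both in 20% O2, and on 3 of the P7 WT arrays. Groups of 2 arrays were too small for a test of single outlying samples.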

How the results depend on the processing

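The count of 7 members lower at P7 stayed within 1.5 times under the alternatives that could be run, except normexp (1). Leaving out 1 array at a time gave 6 to 7. Member calls over the 4 single passage comparisons (0) became 3 with the 75th percentile of all miRNAs, 2 with normexp, 1 with a lower floor, 4 with a higher floor, 1 with no filter, 7 with the replicate block, 6 with the cell line as a random block, 3 by the methods' t-test, 7 without the 3 arrays with the fewest miRNAs above background (added after seeing the data), and 0 to 14 with 1 array left out. For Ercc1-/- against WT at P3 the count (0) became 1 with normexp, a higher floor or no filter and 0 to 1 with 1 array left out. Single genotype comparisons (0) gave 1 with normexp, 2 by the methods' t-test and 0 to 1 with 1 array left out, as did the oxygen and the passage-by-genotype counts. Single oxygen comparisons (0) gave 0 to 1 in that way. The replicate block also added 1 call for passage in WT MEFs and changed no other count of members. Its 7 single passage calls were all in Ercc1-/- MEFs in 3% O2, where it called 18.3% of all tested miRNAs, against 0% without it. The 3 calls by the methods' t-test were in the same culture, against 8.94% of all. For the other settings of the single passage comparisons no share of all miRNAs is given, and leaving out an array leaves 1 in its group. Those member counts are therefore not read as results about the members.

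Normexp turned the passage change of miR-322* (0.37), miR-351 (0.39), miR-542-3p (0.070), miR-542-5p (0.22) and miR-450b-3p (0.34), the P3 genotype difference of miR-322* (-0.13), miR-351 (-0.20) and miR-450b-3p (-0.13), and the P7 one of miR-322 (0.26). The higher floor turned miR-351 (0.028 with passage, -0.23 at P3). Leaving out single arrays took the P3 difference of miR-351 to between -0.36 and 0.86, and for miR-322 the oxygen difference to between -0.53 and 0.37, the P7 genotype difference to between -1.21 and 0.58 and the passage-by-oxygen difference to between -0.030 and 1.76. Without the 3 arrays the oxygen difference of miR-322 was 0.65. The causes were not tested. Over 28 further member changes, 91 of 840 values under the alternatives turned in direction, in 23 of the changes, and 2 passed the test, both for miR-503 without replicate 1 of Ercc1-/- P7 20% (oxygen -1.55, passage by genotype -2.56). Testing only miRNAs above background on all arrays left no member, so that alternative gave no value. The passage call held in 30 of 30 alternatives for miR-322 and in 18 of 30 for miR-322*. Of all tested miRNAs 129 were called with passage, 58.9% of them lower. Without scaling, the median of all tested miRNAs moved to -1.14 and 44 were called, 86.4% of them lower, and scaling to the 75th percentile of the miRNAs above background throughout gave 124, 48.4% lower, with a median of -0.11. The total was 35 with normexp, 69 with the software's summed signal and 55 with no filter. All 8 members kept lower means in these settings except with normexp.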
